A study of Mus musculus with 3 samples.

Results

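The C-type lectin receptors described here are cell surface proteins of myeloid cells that bind sugars, glycolipids or other ligands of microbes and damaged cells. The members were listed by gene name: Clec4e, Clec4d, Clec4n, Clec7a, Clec4a3, Clec12a, Clec10a, Mgl2, Cd209a and Mrc1. Every probe set that the platform annotation assigns to exactly 1 of these genes was taken, which gave 11 probe sets for 9 of the 10 genes, among 17886 genes with a probe set in all. Clec12a was not analysed here. Clec4e and Clec4n were each read by 2 probe sets and the other 7 genes by 1. RNA came from dendritic cells (DCs) grown from wild-type mouse bone marrow in GM-CSF (granulocyte-macrophage colony-stimulating factor) over 5 days, then sorted by flow cytometry on PDL2, the PD-1 ligand encoded by Pdcd1lg2. There were 3 groups with 1 array each: PDL2-negative untreated cells, PDL2-negative cells given 100 ng/ml of LPS, the bacterial agonist of Toll-like receptor 4, and PDL2-positive untreated cells. The age and sex of the mice, the number of mice and the hours of LPS exposure are not given in the sources used here. Such marrow cultures are known to hold macrophage-like cells beside DCs.

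The members differ in what they bind and how they signal, as background. Clec4e encodes Mincle, a receptor for mycobacterial cord factor and for a protein released by dying cells, and Clec4d encodes MCL, its partner at the surface. Clec4n encodes Dectin-2, a receptor for fungal mannans, and Clec7a encodes Dectin-1, a receptor for beta-glucans. Mincle and Dectin-2 signal through the adaptor FcR gamma (Fcer1g) and Dectin-1 through a motif in its own tail, and all of them use the kinase Syk and the adaptor Card9. Clec10a and Mgl2 encode macrophage galactose-type lectins, Cd209a encodes a mouse relative of DC-SIGN, and Mrc1 encodes the mannose receptor. These endocytic lectins take up glycosylated antigen, and they are often described in alternatively activated macrophages and in immature or tolerance-associated DCs. Clec4a3 belongs to the DCIR family, whose best-known member, Clec4a2, carries an inhibitory motif.

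Signals are log2 values after quantile normalization of the 3 arrays, and a difference of 1 on this scale is 2-fold. The floor was the median of all values, 5.58, and where either array of a comparison lay at or under it the fold is a lower bound, written "at least". With 1 array per group no difference has a replicate check and no test was possible, so "called higher" and "called lower" mean a difference of 2-fold or more, and precision is limited by the number of arrays. The only error measure is technical: over genes with 2 or more probe sets, the differences shown by the 2 brightest probe sets of a gene deviated from each other by a robust SD of 0.41 in the LPS comparison, 0.29 in the PDL2 comparison and 0.44 between PDL2-positive and LPS-treated cells. Pdcd1lg2 followed the sort, at 8.40 in PDL2-negative untreated, 9.44 in LPS-treated and 11.73 in PDL2-positive cells. The DC markers H2-Ab1, H2-Eb1 and Cd74 lay between 13.84 and 14.33 on every array, and Itgax, which encodes CD11c, lay at 11.48, 10.80 and 9.81 in the same order of groups. The macrophage markers were above the floor in both PDL2-negative samples, and their values are given beside the PDL2 comparison.

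Without LPS, every measured member was lower in the PDL2-positive population. After LPS they parted: Clec4e was higher, Clec4d and Clec4n stayed within 2-fold, and Clec7a, Clec4a3 and the 4 endocytic lectins were lower. By gene, 1 of 9 was called higher and 6 were called lower after LPS, where 9.17% of 11000 genes were called higher and 13.8% lower. In PDL2-positive against PDL2-negative untreated cells 9 of 9 were called lower and 0 higher, against 13% and 10.1% of 10926 genes. By probe set, 11 of 11 were lower in that comparison, against 11.6% of 18836 probe sets. The members share the untreated PDL2-negative array as the control of both comparisons.

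**Figure D1:**
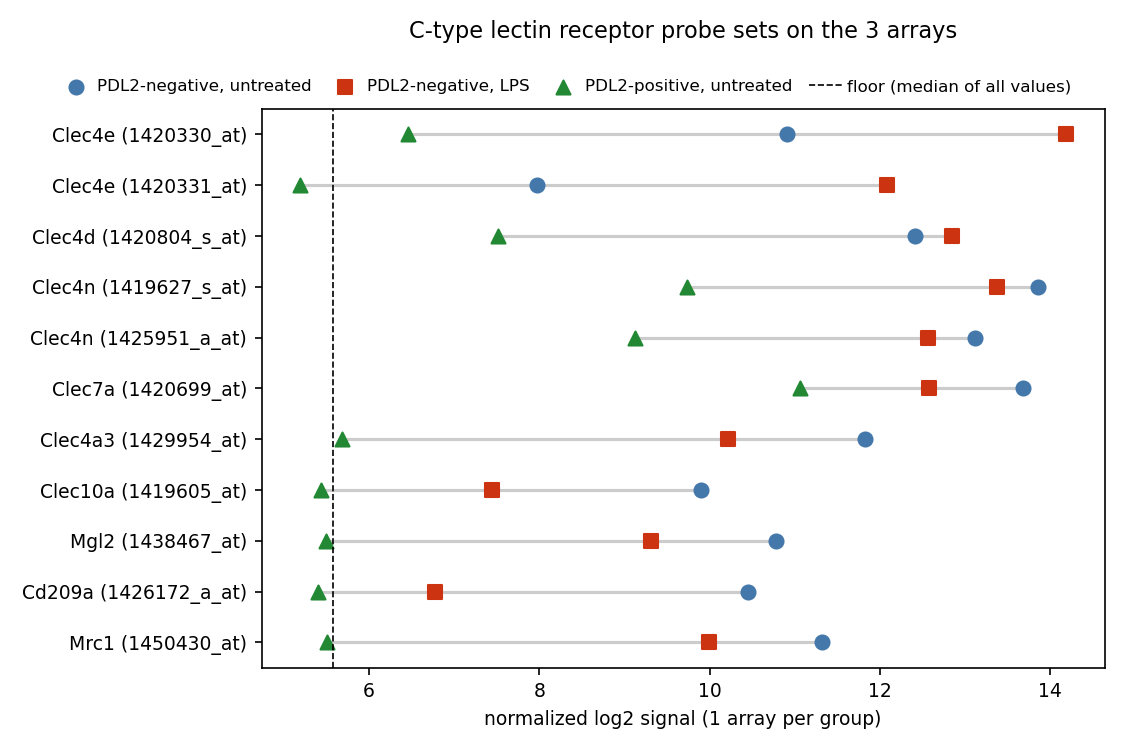
Normalized log2 signal (horizontal axis) of each of the 11 lectin probe sets on the 3 arrays, with 1 symbol per array and the floor of 5.58 as a dashed line; grey lines join the lowest and highest value. PDL2-positive cells had the lowest value in all 11 rows, and the LPS array had the highest value only for Clec4e and Clec4d.

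Clec4e stood apart from the other members after LPS. The brighter of its probe sets (1420330_at) gave 10.91 in untreated PDL2-negative cells, 14.19 with LPS and 6.46 in PDL2-positive cells. The dimmer (1420331_at) gave 7.98, 12.08 and 5.19. Both ordered the arrays alike, with LPS highest and PDL2-positive lowest. Clec4e was thus 9.71-fold higher after LPS by the first probe set and 17.2-fold by the second, and its first value ranked 131st from the top of the 10163 genes that both arrays read above the floor. In PDL2-positive cells it was 21.9-fold lower by the first probe set and at least 5.27-fold lower by the second, which was under the floor there. The LPS signal of 14.19 lay above 99.9% of probe sets on that array, where differences can be compressed. Of 10696 genes measured in both comparisons 192 (1.80%) were, like Clec4e, higher after LPS and lower in PDL2-positive cells, and no other member was among them.

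Clec4d, the partner of Clec4e, did not share its LPS response at this threshold. Its signals were 12.41 in untreated PDL2-negative cells, 12.85 with LPS and 7.52 in PDL2-positive cells. The LPS difference of 0.44 was 1.36-fold and close to the technical spread, while the PDL2-positive value was 29.7-fold lower. Its probe set carries the suffix _s_at, which marks sets that can read transcripts of more than 1 gene.

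Clec4n was lower in PDL2-positive cells and within 2-fold after LPS by both of its probe sets. Its first probe set (1419627_s_at) gave 13.86 in untreated PDL2-negative cells, 13.38 with LPS and 9.73 in PDL2-positive cells. The second (1425951_a_at) gave 13.12, 12.56 and 9.12. The LPS differences of -0.48 and -0.56 did not reach 2-fold, and PDL2-positive cells had lower signals by factors of 17.5 and 16.0. The readings of this gene therefore differed from each other by less than the technical spread in both comparisons. The first probe set carries the suffix _s_at, as that of Clec4d does. Its untreated PDL2-negative signal was at or above 99.8% of probe sets on that array, where differences can be compressed.

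Clec7a kept the most signal in PDL2-positive cells relative to its untreated PDL2-negative value. It gave 13.69 in untreated PDL2-negative cells, 12.57 with LPS and 11.06 in PDL2-positive cells. It was 6.18-fold lower in PDL2-positive cells, the smallest such difference among the 9 genes. Its untreated PDL2-negative signal was at or above 99.7% of probe sets on that array, where differences can be compressed. After LPS it was 2.16-fold lower, a difference of -1.11 that passed the 2-fold line by less than the technical spread.

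The genes of Clec4e, Clec4d and Clec4n lie side by side on chromosome 6, in the Dectin-2 cluster, which runs from Clec4a1 to Clec4e in the RefSeq gene table and holds 9 protein-coding genes. Of these, 6 have a probe set here. In chromosome order the LPS differences were -1.61 for Clec4a3, -2.56 for Clec4b1 (a lower bound in size), -2.20 for Clec4a2, -0.48 for Clec4n, 0.44 for Clec4d and 3.28 for Clec4e. The last 3 of these neighbours thus ran from slightly lower to clearly higher, while the first 3 were called lower. Under PDL2 sorting no such gradient appeared, since all 6 were called lower, with Clec4a2 at -5.17 and Clec4b1 at least 5.88-fold lower. Clec4a2 encodes the inhibitory receptor DCIR. Clec7a lies apart in the Dectin-1 cluster of the same chromosome. Of the other genes there, Cd69 (4.13) and Clec2d (1.89) were called higher after LPS, and Olr1, a receptor for oxidized lipoprotein, was at least 5.19-fold higher. Clec1b, which encodes the podoplanin receptor CLEC-2, stood at -0.81 after LPS, within the technical spread of Clec7a at -1.11.

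**Figure D2:**
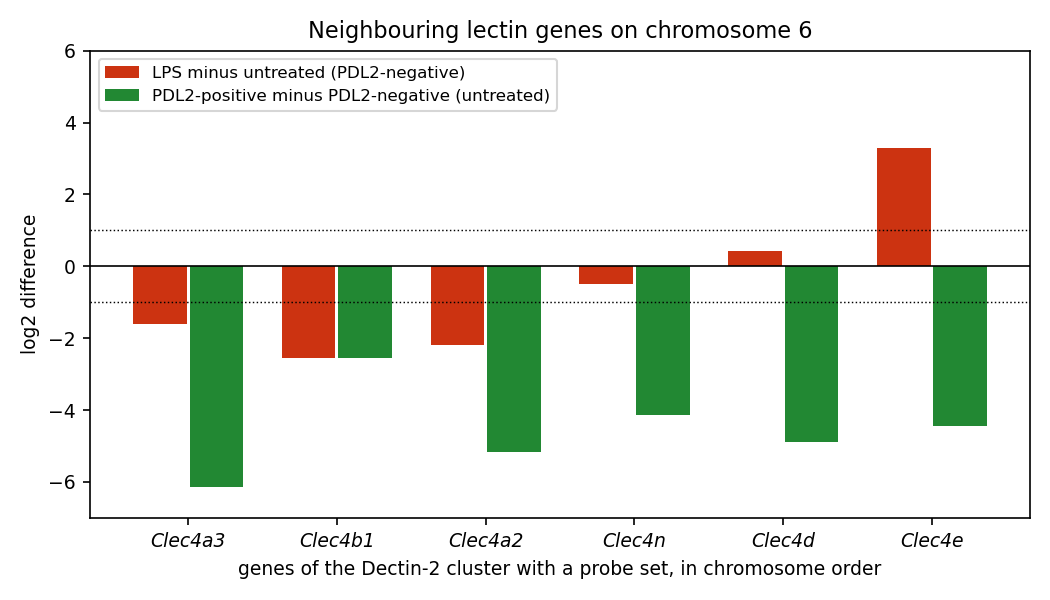
Log2 differences (vertical axis) of the 6 Dectin-2 cluster genes with a probe set, in chromosome order, after LPS (red) and in PDL2-positive cells (green); dotted lines mark 2-fold and the Clec4b1 bars are lower bounds. Green bars all point down, from -2.56 to -6.15, while the red bars run from below 0 on the left to 3.28 for Clec4e.

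Promoter sequences are shown for Clec4e and Clec4d, neighbours that differed after LPS, and for Cd209a and Mrc1, endocytic lectins that were lower after LPS. Each is the 250 bases before the annotated start, from RefSeq on GRCm38.p6, written 5′ to 3′ on the gene's strand. Capitals mark matches on either strand to TTNNGNAA, a loose form of the motif of C/EBP factors, of which C/EBP beta is known to act on Clec4e.
Clec4e (chr6:123289872-123290121, minus strand): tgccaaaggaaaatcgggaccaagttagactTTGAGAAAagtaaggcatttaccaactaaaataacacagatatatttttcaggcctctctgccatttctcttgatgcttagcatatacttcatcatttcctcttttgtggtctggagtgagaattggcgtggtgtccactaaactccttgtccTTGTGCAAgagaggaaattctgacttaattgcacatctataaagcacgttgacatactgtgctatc
Clec4d (chr6:123261857-123262106, plus strand): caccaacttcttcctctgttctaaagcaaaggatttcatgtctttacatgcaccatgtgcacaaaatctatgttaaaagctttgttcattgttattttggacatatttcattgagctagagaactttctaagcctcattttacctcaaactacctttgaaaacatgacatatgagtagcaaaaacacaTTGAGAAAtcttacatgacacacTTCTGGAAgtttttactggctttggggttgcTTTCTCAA
Cd209a (chr8:3748985-3749234, minus strand): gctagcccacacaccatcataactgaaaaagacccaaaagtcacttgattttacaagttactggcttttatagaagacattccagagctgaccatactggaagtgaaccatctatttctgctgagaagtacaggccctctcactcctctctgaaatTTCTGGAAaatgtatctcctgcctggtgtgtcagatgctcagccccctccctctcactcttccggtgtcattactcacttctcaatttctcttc
Mrc1 (chr2:14229164-14229413, plus strand): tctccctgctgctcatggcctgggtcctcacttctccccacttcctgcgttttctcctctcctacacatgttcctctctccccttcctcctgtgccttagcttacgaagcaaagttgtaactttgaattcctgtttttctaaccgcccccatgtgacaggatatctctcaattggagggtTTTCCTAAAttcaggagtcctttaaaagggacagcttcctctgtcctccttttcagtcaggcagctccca
The motif was found at 2 places before Clec4e, 3 before Clec4d, 1 before Cd209a and 2 overlapping places before Mrc1. Of the members whose windows are not printed, Clec12a held 2 matches and Mgl2 1, while Clec7a and Clec4a3 held 0 at each of their 2 annotated starts. Over all genes 36.8% of 32851 such windows held at least 1 match. The match nearest to the Clec4e start began 66 bases before it and read TTGTGCAA, and the match nearest to the Clec4d start began 8 bases before it. The PU.1 core GAGGAA, searched on both strands, was found at 2 places before Clec4e, 1 before Clec4d, 3 before Mrc1 and 0 before Cd209a, and in 23.3% of windows. Clec12a held 2 such places, Mgl2 and each Clec7a start 1, and the Clec4a3 starts 0 and 1. Of the members, 8 have an entry in the promoter table, and Clec4n and Clec10a do not. A match describes letters in a window and shows no binding. Among genes of C/EBP factors, Cebpb gave 11.88, 12.80 and 8.26 and Cebpd 9.91, 11.44 and 6.52 on the untreated PDL2-negative, LPS and PDL2-positive arrays. The LPS difference of Cebpb was 0.92 by this brightest probe set, within 2-fold, but 1.36 by its other probe set. Cebpa, the other C/EBP gene listed, gave 10.33, 8.72 and 8.08, and was thus called lower in both comparisons.

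Clec4a3 had the largest measured PDL2 difference of the members, although the endocytic lectins have only lower bounds there. Its signals were 11.83 in untreated PDL2-negative cells, 10.22 with LPS and 5.68 in PDL2-positive cells, the last close to the floor. It was 71.1-fold lower in PDL2-positive cells, the lowest difference of the 10091 genes that both arrays read above the floor, and 3.05-fold lower after LPS. Clec4a2, its relative in the cluster, was also lower in both comparisons, at 11.82, 9.62 and 6.65.

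The 4 endocytic lectins shared 1 pattern: highest in PDL2-negative untreated cells, lower after LPS and under the floor in PDL2-positive cells. Cd209a gave 10.45 in untreated PDL2-negative cells, 6.78 with LPS and 5.40 in PDL2-positive cells. It was 12.7-fold lower after LPS, 23rd from the lowest of those 10163 genes, and at least 29.2-fold lower in PDL2-positive cells. No other member was as much lower after LPS.

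Clec10a gave 9.91, 7.45 and 5.44 on the same arrays. It was 5.49-fold lower after LPS and at least 20.1-fold lower in PDL2-positive cells. Mgl2, its paralog and immediate neighbour on chromosome 11, gave 10.78, 9.32 and 5.49. It was 2.76-fold lower after LPS and at least 36.9-fold lower in PDL2-positive cells. The products of Clec10a and Mgl2 are closely related, and how far each probe set reads the other transcript was not tested.

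Mrc1 gave 11.32, 9.99 and 5.51. It was 2.51-fold lower after LPS, the smallest LPS difference of the 4, and at least 53.4-fold lower in PDL2-positive cells. At a 3-fold threshold 3 of the 9 members were lower after LPS, namely Cd209a, Clec10a and Clec4a3, against 5.87% of genes. With the floor at the 75th percentile of all values (7.80) the PDL2 differences shrank to -2.64 for Cd209a, -2.10 for Clec10a, -2.98 for Mgl2, -3.51 for Mrc1, -4.02 for Clec4a3 and -3.11 for Clec4e, and the LPS difference of Cd209a to -2.64, since low values are raised to that floor.

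**Figure D3:**
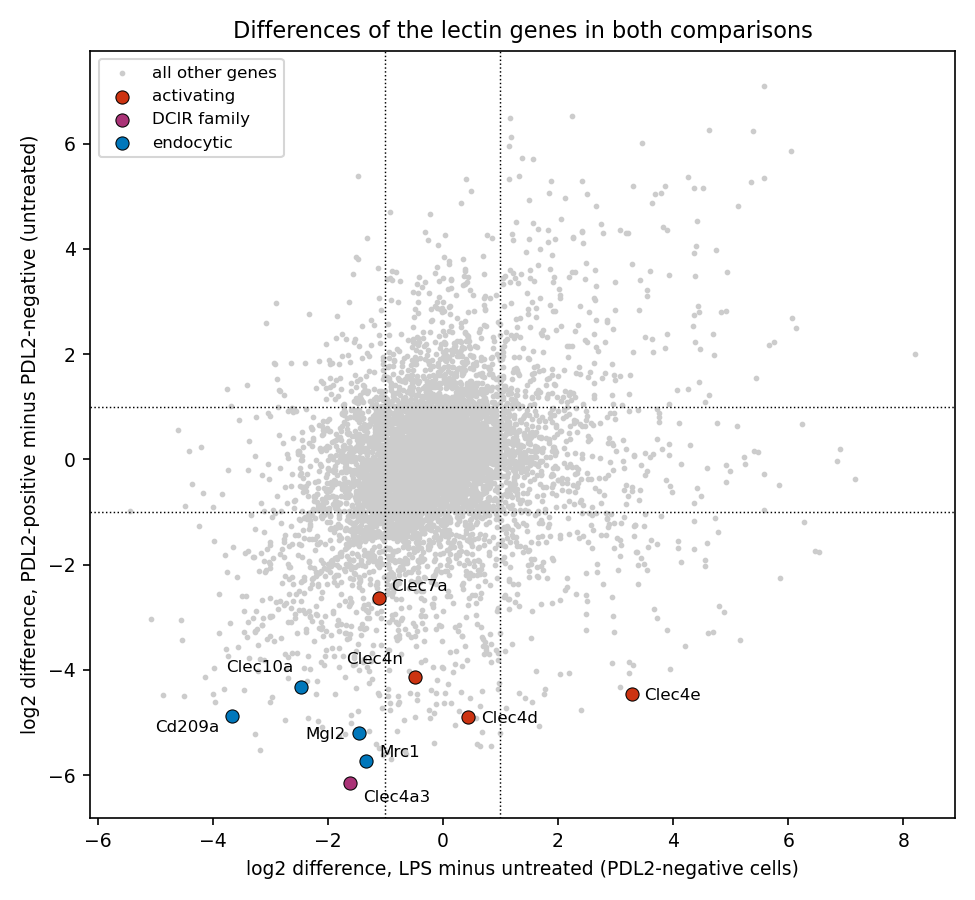
Log2 difference after LPS (horizontal axis) against that in PDL2-positive cells (vertical axis) for 10696 genes measured in both (grey) and the 9 lectin genes by kind, with dotted lines at 2-fold. Both axes share the untreated PDL2-negative array. All 9 lectins lie below the lower horizontal line, Clec4e alone lies to the right of the right vertical line, and the 4 endocytic lectins, whose vertical positions are lower bounds, lie to the left of the left one.

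Clec4e and its activating relatives were then set beside the endocytic lectins. After LPS the activating genes Clec4e, Clec4d, Clec4n and Clec7a ran from -1.11 to 3.28 with a median of -0.02, and the endocytic genes ran from -3.67 to -1.33 with a median of -1.96. The ranges did not overlap, but the gap between Clec7a and Mrc1 was 0.21, which is within the technical spread, and the median over all genes was 0.02. In PDL2-positive against PDL2-negative cells the ranges overlapped, from -4.89 to -2.63 for the activating and from -5.74 to -4.33 for the endocytic genes. The medians were -4.29 and -5.04, against 0.01 over all genes, and the endocytic values are lower bounds in size, so their measured signals lie further down still. The activating median minus the endocytic median was 0.75, and 0.88 with no floor. With the floor at the 75th percentile it was -0.81, since that floor cuts the endocytic differences short. Of the 9 members, 6 were called lower in both comparisons, against 5.49% of 10696 genes.

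The direct comparison of PDL2-positive untreated with LPS-treated PDL2-negative cells sets the sorted population beside the stimulated one. For each member it equals the PDL2 difference minus the LPS difference. It therefore restates the first comparisons and adds no independent evidence. All 9 members were called lower in PDL2-positive cells and 0 higher, against 12.6% and 15.6% of 11042 genes. Clec4e was 213-fold lower, 3rd from the lowest of the 9954 genes read above the floor by both arrays, and its second probe set gave at least 90.7-fold. With the floor at the 75th percentile the Clec4e difference was -6.39 in place of -7.73. Clec4d was 40.2-fold lower. Clec4a3 was 23.3-fold, Clec4n 12.5-fold and Clec7a 2.86-fold lower. The endocytic genes were at least 21.3-fold (Mrc1), 13.4-fold (Mgl2), 3.65-fold (Clec10a) and 2.30-fold (Cd209a) lower. The bounds of Clec10a and Cd209a start from LPS signals of 7.45 and 6.78, not far above the floor. The members' median difference was -3.74, against -0.05 over all genes.

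Markers of other cells moved with the sort. All 10 macrophage markers with a probe set were called lower in PDL2-positive cells, whose median difference was -4.38, and their summed signal was 16.59 in PDL2-negative untreated, 16.24 in LPS-treated and 13.26 in PDL2-positive cells on the log2 scale. Monocyte markers were lower for 5 of 6, between -4.61 and -0.96 in all, with summed signals of 12.85, 12.44 and 9.87. None of the macrophage markers was under the floor on any array, with Csf1r at 14.08, 13.58 and 10.72. All 7 mature DC markers were higher both in PDL2-positive cells (median 4.34) and after LPS (median 3.85). After LPS 1 macrophage marker was higher and 2 were lower of 10, and of 10 neutrophil markers 6 were lower and 0 higher (median -1.36). In PDL2-positive cells 1 neutrophil marker of 10 was lower and 0 were higher (median -0.02). The part of these cells in the lectin differences was not tested, and fewer cells of a type cannot be told apart from less RNA per cell in these bulk samples. Of 11 conventional DC markers above the floor, the PDL2 comparison called 5 higher and 2 lower and the LPS comparison called 0. Higher were Irf4 (3.38), Batf3 (2.71), Irf8 (2.40), Zbtb46 (2.37) and Flt3 (1.89), and lower were Sirpa (-2.96) and Itgax (-1.67). Xcr1, which marks 1 DC lineage, was under the floor on every array. Of 6 lymphocyte markers 1, Cd3e, was above the floor on any array, at 6.17 to 6.29, and the median differences of plasmacytoid DC and of mast cell and basophil markers over 4 genes each were -0.77 and 0.40 in PDL2-positive cells and 0.48 and 0.22 after LPS.

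Other C-type lectin genes were more mixed than the members. The members and lists were chosen with earlier results of these data known, so this contrast is only descriptive. Of 40 listed, 35 have a probe set and 24 were above the floor in each of the first comparisons. In PDL2-positive against PDL2-negative untreated cells 12 were called lower and 5 higher, with a median of -0.62. The lowest were Clec4a2 (-5.17), Cd93 (-4.96) and Clec5a (at least 24.6-fold lower), which signals through DAP12. Asgr2 (at least 20.9-fold lower), Cd302 (-4.38) and Cd207 (-3.45) were also among those called lower. Higher were Klrk1 (4.33), which encodes the receptor NKG2D, Ly75 (3.12), which encodes the uptake receptor DEC-205, and Clec2i (2.36). The median moved with the settings, to -1.77 with no floor, -0.96 with the higher floor and -1.38 with averaged probe sets.

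After LPS 5 of these 24 genes were higher and 8 lower, against 9.17% and 13.8% of all genes. Their median was -0.14. The highest were the activation marker Cd69 (4.13), Klrk1 (2.42) and Olr1. The lowest were Asgr2 (-3.46), a subunit of the asialoglycoprotein receptor, Klrb1b (at least 8.85-fold lower) and Cd93 (-2.74). Ly75 was thus an uptake lectin with the opposite pattern to Mrc1, at 7.11, 9.15 and 10.22 in PDL2-negative untreated, LPS-treated and PDL2-positive cells. Cd209c, a paralog of Cd209a, gave 8.46, 6.69 and 6.13 and was called lower in both comparisons.

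The signalling genes that serve these receptors differed less. Of 19 with a probe set, the PDL2 comparison called 7 lower and 1 higher (median -0.63), and the LPS comparison 4 lower and 2 higher (median -0.12). Fcer1g, the adaptor of Mincle and Dectin-2, gave 13.63, 13.51 and 10.40 and was 9.39-fold lower in PDL2-positive cells. Syk gave 11.06, 11.91 and 10.73, and Bcl10 10.73, 10.51 and 10.25, so neither differed by 2-fold in the LPS or the PDL2 comparison by its brightest probe set. Of 4 Syk probe sets, 1 was higher by 1.58 after LPS and the others by 0.85 to 0.95. Malt1, which acts with Card9 and Bcl10, was 7.44-fold higher after LPS and differed by -0.06 in PDL2-positive cells. Src (4.07) was the other gene called higher after LPS, while the lipid phosphatase gene Inpp5d (-3.43) and Nfatc2 (-3.13) were the lowest. Nfatc2 (-3.02) and Plcg2 (-2.14), whose product acts downstream of Syk, were also called lower in PDL2-positive cells.

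Most uptake receptors that are not lectins were also lower in PDL2-positive cells. Of 16 above the floor 14 were called lower and 0 higher, with a median of -3.89 beside -4.87 for the lectin members, and the largest differences were those of the Fc receptor genes Fcgr2b (-5.46) and Fcgr1 (-5.06) and of Axl (-4.92), a receptor for apoptotic cells. Of the listed genes, 4 are also macrophage or monocyte markers. After LPS 4 of 17 were higher and 5 lower (median 0.11, but -0.02 with the higher floor), led by the scavenger receptor gene Marco (at least 22.4-fold higher), with Cd14 at 1.75, and at the other end by the transferrin receptor gene Tfrc (-2.70). Compared with these genes, the endocytic lectins after LPS were 4 of 4 lower, and the difference between the lists was not tested.

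Mrc1, Clec10a and Mgl2 are often described in the setting of interleukin 4 and alternative activation. As a list, genes associated with that setting did not share the pattern of those lectins, although single genes did. After LPS 7 of the 12 genes read above the floor were higher and 2 lower (median 2.59), and of 11 in the PDL2 comparison 4 were higher and 6 lower (median -1.02). Il10 was at least 51.5-fold higher after LPS, and Ccl22 was higher by 5.39 after LPS and by 6.24 in PDL2-positive cells. Ccl22 is also 1 of the mature DC markers used here. The others called higher after LPS were Socs1 (4.63), Ccl17 (4.53), Il1rn (3.71), Tgm2 (2.88) and Il4ra (2.31). The list median depends on such genes, and whether it reflects interleukin 4 was not tested. Arg1 and Retnla, usual markers of alternative activation, were under the floor on all 3 arrays. They were picked after their values were seen. Chil3, from the same list, was well above the floor on every array, at 12.05, 11.23 and 11.03. It differed by -0.81 after LPS and was called lower in PDL2-positive cells (-1.02). Egr2, a factor induced by interleukin 4 in macrophages, gave 9.94, 7.53 and 7.39, and Fn1 gave 10.86, 9.80 and 9.81. Egr2 and Fn1 were called lower in both comparisons, as Mrc1, Clec10a and Mgl2 were, Fn1 only just past 2-fold (-1.07 and -1.06). Mmp12, a macrophage elastase gene, differed by 0.04 after LPS and by -4.44 in PDL2-positive cells.

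Of 15 genes of transcription factors linked to myeloid lectin genes, the PDL2 comparison called 4 higher and 7 lower and the LPS comparison 4 higher and 3 lower (median 0.38). The median PDL2 difference was -0.72, but 0.27 with the floor at the 75th percentile. Relb (4.34), Rel (3.43) and Irf4 (3.38) were higher in PDL2-positive cells, and Maf (-4.77), Cebpb (-3.62) and Cebpd (-3.39) lower. After LPS Klf4 (-3.46) was the lowest and Rel (2.47) the highest. Cebpd was called higher after LPS (1.53) and lower in PDL2-positive cells, as Clec4e was.

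**Figure D4:**
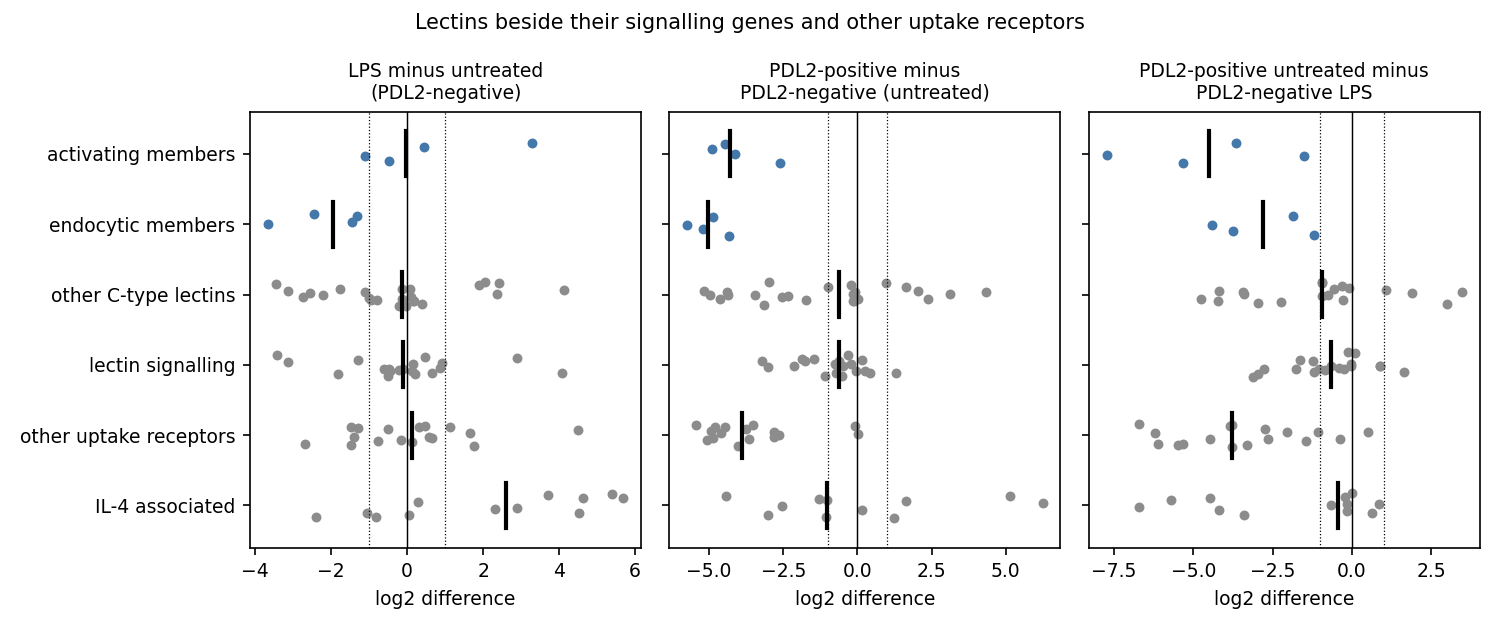
Log2 differences (horizontal axes) of the genes of 6 lists in the 3 comparisons, with 1 point per gene that either array read above the floor, points with an array at the floor drawn at their lower bound, and a black bar at each list's median; vertical scatter only separates points. The endocytic members all lie below 0 in the left panel, where the activating members spread around a median of -0.02, and both member groups lie below -1 in the other panels.

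The genes most like Clec4e were those with the smallest Euclidean distance from its LPS and PDL2 differences, taken over 9850 genes above the floor on all 3 arrays with the members left out. The nearest were the chemokine gene Ccl3 (distance 0.59), the formyl peptide receptor gene Fpr2 (0.68), the acute phase gene Saa3 (0.81), the chemokine gene Cxcl2 (0.94) and the haptoglobin gene Hp (1.21). Ccl3 gave 10.72 in untreated PDL2-negative cells, 13.96 with LPS and 6.87 in PDL2-positive cells. No neighbours are given for Cd209a, whose PDL2 difference is a bound and which is itself under the floor in PDL2-positive cells. These distances rest on 2 differences from 3 arrays and carry no test.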

How the data were processed

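Total RNA from 3 mouse DC samples, 1 per group, was labelled with biotin, per the labels, and read on arrays whose probe sets have Affymetrix names. The values deposited by the authors are log2 signals per probe set, as their range from 3.19 to 14.82 shows; the background correction, normalization and summary method are not given in the sources used here. Of 38546 probe sets, 13 controls were left out. The 75th percentiles were 7.90, 7.68 and 7.84, so the arrays were quantile-normalized. The platform annotation assigned 33974 of the remaining probe sets to 1 gene, with symbols updated through Entrez numbers. A gene was represented by its probe set of highest mean signal, while every probe set of the members is given. A gene entered a comparison if above the floor on at least 1 array. The deposited value was identical on all 3 arrays for 7011 probe sets (18.2%), and for 0 member probe sets. Named genes outside the members were up to 3 per direction with the largest differences in each list, plus genes a result turns on. Alternatives were the deposited values, median centring, other floors, averaged probe sets and other fold thresholds. The members, lists and rules were chosen with earlier results of these data known. Python 3.11.15, NumPy 2.4.6 and pandas 2.3.3 were used.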

Additional observations from a re-analysis of the deposited data

How the results depend on the processing

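Of 133 alternative values of the members' differences, all 133 kept their direction and their side of the 2-fold line, and 120 moved by less than the technical spread. They came from the deposited values, median centring, a floor at the 75th percentile of all values, no floor and averaged probe sets. Many of these values could not move, so the counts overstate how stable the differences are. Averaging leaves a gene with 1 probe set unchanged. A changed floor leaves a difference unchanged where both arrays lie above the old and the new floor. Under the higher floor Cd209a and Clec10a could not be compared between PDL2-positive and LPS-treated cells, since both arrays lay under it. That floor moved the PDL2 medians to -3.62 for the activating and -2.81 for the endocytic genes and their difference to -0.81, because it raises low values. Against LPS-treated cells the endocytic median became -1.85 and the activating minus endocytic median -2.50. That endocytic median rests on Mgl2 (-1.51) and Mrc1 (-2.18) alone, so its shift mixes raised values with a changed set of genes. With averaged probe sets the activating PDL2 median was -3.84 and its excess over the endocytic one 1.20, since the dimmer Clec4e probe set then enters; Clec4e itself was 3.69 after LPS and -3.62 in PDL2-positive cells. At 3-fold the count of members lower after LPS was 3. No paired analysis was possible because each group has 1 array. Signals near the floor or the top of the scale bound or compress differences.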
